A study of Mus musculus with 463 samples.

Results

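The 9 genes described here are Aldh1a1, Aldh1a2, Aldh1a3, Rarb, Crabp1, Crabp2, Cyp26a1, Cyp26b1 and Stra6, which take up retinol, make retinoic acid, bind it, respond to it or clear it. They were taken by symbol from the gene count tables, where all 9 were present among 40824 genes, and were followed across sorted cell populations, dorsal and ventral sides and embryonic stages of the mouse pancreas and liver bud. In the bulk libraries the genes fell into separate domains. The binding proteins Crabp1 and Crabp2 and the receptor gene Rarb were highest early and, at E10.5, ventrally, Aldh1a1 and Stra6 were highest at E14.5 in the cells with little Ngn3 reporter, and Aldh1a3 was highest in the cells with much of it.

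Retinoic acid is a vitamin A derivative that cells make in steps: Stra6 is the membrane receptor that takes up retinol from its plasma carrier Rbp4, and the retinaldehyde dehydrogenases Aldh1a1, Aldh1a2 and Aldh1a3 carry out the final oxidation to retinoic acid. Inside the cell Crabp1 and Crabp2 bind the product, which activates nuclear retinoic acid receptors such as Rarb, while the cytochrome P450 enzymes Cyp26a1 and Cyp26b1 break it down. In the mouse foregut, Aldh1a2 in the mesoderm beside the gut is the best known source, and the dorsal pancreatic bud depends on it.

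On GRCm38 (GENCODE vM21) the 9 protein-coding genes lie at separate loci. Aldh1a1 (ENSMUSG00000053279) is at chr19:20492715-20643465, Aldh1a2 (ENSMUSG00000013584) at chr9:71215789-71296243 and Aldh1a3 (ENSMUSG00000015134) at chr7:66390890-66427517. Crabp1 (ENSMUSG00000032291) is at chr9:54764748-54773110 and Crabp2 (ENSMUSG00000004885) at chr3:87948666-87953376. Cyp26a1 (ENSMUSG00000024987) is at chr19:37697798-37701536 and Cyp26b1 (ENSMUSG00000063415) at chr6:84571414-84593908. Stra6 (ENSMUSG00000032327) is at chr9:58063788-58153996 and Rarb (ENSMUSG00000017491) at chr14:16430839-16819156, and both overlap another protein-coding gene.

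Rarb and Cyp26a1 are textbook direct targets of the receptors, which bind pairs of hexamer sites repeated in the same direction, so the promoters of the 9 genes were searched for such repeats. Promoter sequence from RefSeq (GRCm38.p6, a window of 300 bases from 250 before to 50 after the start of transcription) was matched by symbol for 7 of the 9 genes, with 11 windows in all, and no window was matched for Aldh1a3 and Crabp2. A repeat with a spacer of 5 bases, built on either strand from any of 4 hexamers (the consensus AGGTCA and its variants written AGTTCA, or with a first G as GGGTCA, or with both changes as GGTTCA), was found in Rarb and Cyp26a1. Across all 32851 promoter windows of that length, 32 (0.0974%) held one. The repeat with a spacer of 2 bases was in none of the 11 windows and in 88 windows overall (0.268%). The 250 bases upstream of both starts are shown because they carry the match, with the hexamers in capitals. In Rarb (chr14:16575477-16575726, minus strand) the match runs from base -53 to base -37 before the start. That RefSeq start lies inside the annotated gene, and no window at its upstream end (chr14:16819156) was searched. In Cyp26a1 (chr19:37697558-37697807, plus strand) the match lies on the reverse strand from base -32 to base -16. A match of letters is a description of these windows and no measure of binding.
Rarb: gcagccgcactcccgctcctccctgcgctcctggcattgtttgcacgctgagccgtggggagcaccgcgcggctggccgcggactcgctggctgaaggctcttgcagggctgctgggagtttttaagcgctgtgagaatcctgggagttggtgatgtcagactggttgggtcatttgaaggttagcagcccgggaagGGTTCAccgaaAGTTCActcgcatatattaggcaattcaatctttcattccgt
Cyp26a1: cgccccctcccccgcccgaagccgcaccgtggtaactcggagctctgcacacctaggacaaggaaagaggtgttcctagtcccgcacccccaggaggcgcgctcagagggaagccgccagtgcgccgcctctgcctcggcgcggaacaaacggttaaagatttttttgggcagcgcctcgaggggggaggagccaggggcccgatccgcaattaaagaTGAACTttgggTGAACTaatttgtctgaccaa

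The study measured RNA in cells sorted from mouse embryos by a fluorescent reporter, as 16 bulk libraries (8 groups of 2) and as 447 single cells read by Smart-seq2, a full-length cDNA method. In bulk, Pdx1-GFP+ cells came from the dorsal and the ventral Pdx1-expression region at E10.5, Ngn3-GFP-high and Ngn3-GFP-low cells from the dorsal and the ventral pancreas at E14.5, and Ins1-RFP+ cells from both pancreases at E17.5. Pdx1 marks pancreatic progenitors and neighbouring gut endoderm, Ngn3 (gene symbol Neurog3) marks cells entering the endocrine lineage, and Ins1 marks beta cells. The single cells at E9.5 were Pdx1-GFP+ cells of the dorsal (31 cells) and ventral (44 cells) region. At E10.5 they were Pdx1-GFP+ (27 dorsal, 59 ventral), Pdx1-GFP-high (28 dorsal, 39 ventral) and Pdx1-GFP-low cells (40 dorsal, 39 ventral), ventral Pdx1-GFP-low cells that were also Liv2+ (54) or Liv2- (59), Liv2 being a surface antigen of hepatoblasts, and Liv2+ cells of the liver bud (23). A further 4 cells came from E15.5 liver carrying Pdx1-Cre and ROSA26-tdTomato. Each reporter follows the promoter it is named for. Strain, litter and the embryo behind each cell or library are not in the labels, so p-values measure the spread between these libraries or between numbered sets of cells, which may be technical.

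Each bulk library had between 8779418 and 24551520 gene reads, and each cell between 201191 and 1738015, with a median of 1064163. The labelled populations carried their defining genes: Neurog3 stood at 860 to 1011 CPM (the read count scaled to the depth of a library) in the 4 Ngn3-GFP-high libraries against 98.4 to 149 in the 4 Ngn3-GFP-low ones, and Ins1 at 24166 to 31331 CPM in the Ins1-RFP+ libraries. Several populations carried markers of other cell types, which are given beside the results they touch. The ventral E10.5 bulk libraries carried a summed 1171 and 2036 CPM of 6 cardiac muscle markers, with 6 of 6 above 1 CPM, against 6.53 and 24.6 CPM dorsally, and all 10 mesenchyme markers. The dorsal Pdx1-GFP-low single cells carried 26237 to 54549 CPM of 9 endocrine markers per set against 10.2 to 153 in the ventral Pdx1-GFP-low sets. Of the 44 ventral E9.5 cells, 25 have a growth text that describes human stem cell cultures although their other labels name mouse tissue. They were kept, and the counts called among the 9 genes in the 3 comparisons that use them were 0 with and without them, while over all genes the test of the side difference between stages went from 9 to 3 calls.

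At E10.5 in bulk, Crabp1, Crabp2, Rarb and Aldh1a1 were higher in ventral than in dorsal Pdx1-GFP+ cells. Crabp1, which binds retinoic acid in the cytoplasm, was at 53.5 and 42.1 CPM in the ventral libraries and at 8.36 and 6.03 CPM in the dorsal ones. The groups lay far apart, and the ventral level was higher by 2.73 on the log2 scale (SE 0.30, adjusted p = 3.32e-06). Rarb, the receptor gene, was at 20.3 and 22.7 CPM ventrally and 8.14 and 5.52 CPM dorsally, a difference of 1.66 (SE 0.34, adjusted p = 0.00155). Its locus overlaps Top2b on the opposite strand, and whether the counting used strand is not given in the sources used here. Crabp2, which carries retinoic acid to its receptor, was at 25.1 and 23.1 CPM ventrally against 12.4 and 5.42 CPM dorsally, a difference of 1.44 (SE 0.33, adjusted p = 0.00389). Aldh1a1, the cytosolic dehydrogenase, was low on both sides, at 1.74 and 1.41 CPM ventrally and 0.321 and 0.703 CPM dorsally, the dorsal values resting on 3 and 7 reads, and differed by 1.58 (SE 0.44, adjusted p = 0.0137). The ventral and dorsal libraries did not overlap in these 4 genes, nor in Cyp26b1 and Stra6, which were not called. With 2 libraries a side, a lack of overlap adds little to the test. Its share over all genes is not given here, so it is no result about these genes.

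The other 4 genes tested at E10.5 did not pass the threshold. Cyp26b1, a retinoic acid hydroxylase, was at 5.75 and 6.73 CPM ventrally and 2.79 and 2.01 CPM dorsally (log2 difference 1.38, SE 0.67, adjusted p = 0.167). Stra6, the retinol receptor, leaned the other way, at 4.93 and 4.74 CPM ventrally against 9.11 and 5.82 CPM dorsally (-0.62, SE 0.24, adjusted p = 0.0678). Aldh1a2 was at 6.36 and 3.91 CPM ventrally and 5.36 and 2.41 CPM dorsally, so its libraries overlapped, and Aldh1a3 stayed at 0.301 to 0.536 CPM in all 4 libraries. Cyp26a1, the other hydroxylase, had 2 to 4 reads per library and did not pass the filter on low counts. 8 of the 9 genes passed that filter, and 4 of these 8 were called higher ventrally and 0 lower, where 24.7% of all 17690 genes tested were called in either direction and 10.2% were called higher. Crabp1 and Rarb passed with any 1 library left out. Aldh1a1 did not pass without dorsal library 1 (adjusted p = 0.15) or ventral library 1 (0.0718), nor Crabp2 without dorsal library 2 (0.0829), while Stra6 passed without dorsal library 2 (-0.92, adjusted p = 0.0257). The 8 hepatoblast markers summed to 2220 and 1805 CPM ventrally and 361 and 299 CPM dorsally, the mesenchyme markers to 987 and 606 against 113 and 91.4 CPM, and the endocrine markers to 90.0 and 50.1 against 3507 and 3621 CPM. The part of these cells and of the cardiac RNA in the differences was not tested, and in bulk RNA fewer cells of a type and less RNA per cell cannot be told apart.

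**Figure D1:**
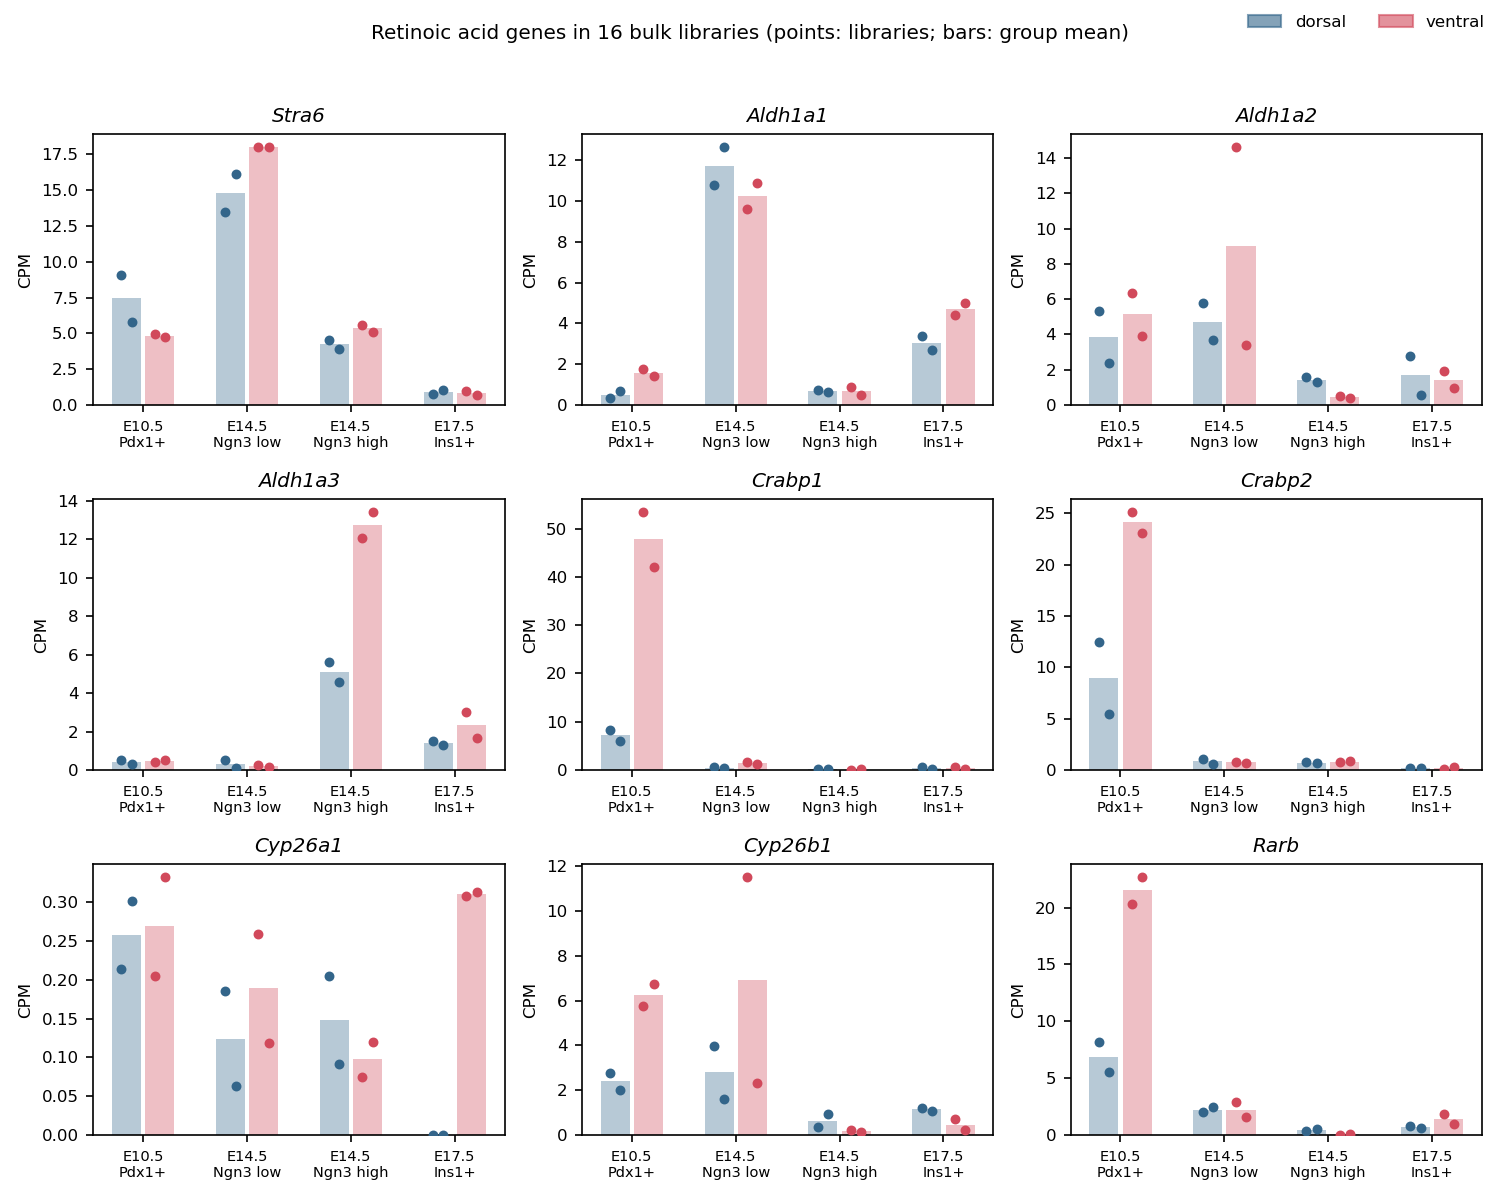
Level of each of the 9 genes in the 16 bulk libraries, in CPM on the vertical axis (each panel has its own scale, starting at 0), by group on the horizontal axis; points are single libraries and bars the mean of the 2 libraries of a group. Crabp1 reaches 53.5 and 42.1 CPM in the ventral E10.5 libraries, Aldh1a1 10.8 and 12.7 CPM in the dorsal E14.5 Ngn3-GFP-low ones, and Aldh1a3 12.0 and 13.4 CPM in the ventral E14.5 Ngn3-GFP-high ones.

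Per length of transcript, which allows genes to be compared, Crabp1 led the 9 genes in ventral E10.5 cells at 64.7 ± 10.8 RPKM (SD, n = 2). Crabp2 at 28.2 ± 1.62 and Rarb at 7.71 ± 0.617 followed. RPKM is the read count scaled by the plain total of gene reads and by gene length in kilobases, so its depth scaling differs from that of CPM. Aldh1a2 at 2.47 ± 0.829, Stra6 at 1.71 ± 0.0434 and Cyp26b1 at 1.43 ± 0.163 RPKM followed, and Aldh1a2 did not differ from Stra6 beyond its spread. Aldh1a1, Cyp26a1 and Aldh1a3 came last, at 0.836, 0.165 and 0.144 RPKM. In dorsal cells the order began with Crabp2 at 10.2 ± 5.70 and Crabp1 at 9.49 ± 2.25 RPKM, which did not differ beyond their spread, and went on with Stra6 at 2.57 ± 0.817 and Rarb at 2.38 ± 0.664. In these bulk libraries Aldh1a2 had the highest level of the 3 dehydrogenases on both sides. The single-cell Pdx1-GFP+ sets of the same stage held no Aldh1a2 read dorsally and 0.668, 0 and 0 CPM ventrally.

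In single cells of E10.5 too, Crabp1 and Crabp2 were higher ventrally, within the Pdx1-GFP-low sort. Counts were summed over each numbered set of 3 or more cells, giving 37 sets in 11 groups that were fitted together, and all 9 genes passed the filter there. Crabp1 was at 130, 115, 101, 113 and 55.2 CPM in the 5 ventral Pdx1-GFP-low sets and at 0 CPM in 4 of the 6 dorsal ones, the other 2 holding 1.46 and 0.0421 CPM. Every ventral set stood above every dorsal set, and the difference was 8.81 on the log2 scale (SE 1.33, adjusted p = 1.29e-05), or 11.63 without dorsal set 5. Crabp2 was at 110, 38.7, 17.2, 40.8 and 40.9 CPM ventrally and reached at most 13.5 CPM dorsally, with a median of 0.8 CPM there. The sets again did not overlap, with a difference of 4.05 (SE 1.15, adjusted p = 0.0101). Rarb was at 3.74 to 80.9 CPM ventrally, with a median of 26.4 CPM, and at 0 to 17.2 CPM dorsally, with a median of 4.38 CPM. These ranges overlapped, and the difference of 2.55 did not pass (SE 1.10, adjusted p = 0.0834), although it did without dorsal set 5 (3.34, adjusted p = 0.0418). Cyp26b1 had no read in the 6 dorsal sets and was at least 15.9-fold higher ventrally against a floor of 3 reads over the dorsal group, with an adjusted p of 0.0623. Of its 44 ventral reads 37 came from 1 cell of set 1 and 7 from set 5, and without set 1 the bound is 3.37-fold.

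Of the 9 genes, 2 were called in that comparison, both higher ventrally, where 24.9% of 17433 genes tested were called and 13.9% were called higher. The dorsal Pdx1-GFP-low sets are those with the high endocrine marker sum, and the pancreatic progenitor markers summed to 106 to 365 CPM in them and to 319 to 616 CPM in the ventral sets. Ventral set 6 also carried 2059 CPM of the mesenchyme markers, against 23.1 CPM in the lowest ventral set. What part these differences in cell makeup have in the result was not tested.

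In the Pdx1-GFP-high sort the sides were not told apart. Crabp1 was at 18.7, 21.6, 92.1, 36.7 and 9.62 CPM in the ventral sets and at 2.36, 19.9, 5.84, 15.4 and 11.9 CPM in the dorsal ones, which overlapped (1.69, SE 0.98, adjusted p = 0.596). In the ventral set with 92.1 CPM, 66.1% of the reads came from 1 cell. Crabp2 lay at 0 to 14.1 CPM ventrally and 0 to 81.8 CPM dorsally (-2.32, adjusted p = 0.483), and 99.7% of the reads of the highest dorsal set came from 1 cell. 0 of the 9 genes were called there by edgeR's quasi-likelihood test, as few as 0.0172% of all genes were, and 0 of the 9 had an unadjusted p under 0.05. DESeq2 also called 0 of the 9. The side difference itself differed between the sorts: for Crabp1 it was smaller in Pdx1-GFP-high cells by 7.12 on the log2 scale (SE 1.60, adjusted p = 0.0042), and for Crabp2 by 6.37 (SE 1.63, adjusted p = 0.011). These were 2 of 9 genes, with 11.2% of all genes called and 6.26% called in that direction.

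Within the dorsal region Crabp1 was higher in Pdx1-GFP-high than in Pdx1-GFP-low cells by 5.60 on the log2 scale (SE 1.25, adjusted p = 0.00155), or 8.41 without dorsal Pdx1-GFP-low set 5, and the high sets, from 2.36 CPM up, lay above the low sets. 3 of the 9 genes were called there, 2 higher and 1 lower, and 24.1% of all genes, 13.0% higher and 11.1% lower. Cyp26b1 had reads in 2 of the 5 Pdx1-GFP-high sets (1.27 and 9.18 CPM) and in none of the 6 low ones, at least 30.1-fold higher (adjusted p = 0.0356). Of its 51 reads 46 came from 1 cell of set 5, and without that set the bound is 3.66-fold. Aldh1a2 went the other way, with 0 reads in the 5 high sets and up to 10.8 CPM in 4 of the 6 low sets, at least 34.0-fold lower in the high cells (adjusted p = 0.0406), or 17.9-fold without low set 6. Its reads lay in 6 of the 40 low cells, and all 35 reads of low set 2 came from 1 cell. Both calls were lost when sets of under 5 cells were left out (adjusted p = 0.111 and 0.141). Cyp26b1 was also lost without dorsal high set 5 (0.176) or without low set 1, 2, 3, 5 or 6 (0.0509 to 0.0681), and Aldh1a2 without any 1 of the 5 high sets or low set 2 or 6 (0.057 to 0.0738). Stra6, at 7.32 CPM in 1 of 5 high sets and up to 20.2 CPM in 4 of 6 low sets, was not called and turned from -1.50 to 0.38 without low set 3 (adjusted p = 0.918), while it passed without high set 1 (adjusted p = 0.0313). Crabp2, at 0 to 81.8 CPM in high and 0 to 13.5 CPM in low sets, was not called (2.94, SE 1.11, adjusted p = 0.0524) and was called without dorsal low set 4 (4.40, adjusted p = 0.00654), high set 5 (0.0255) or high set 6 (0.0494). Ventrally 0 of the 9 genes were called between the sorts by edgeR, against 0.964% of all genes, with 2 at an unadjusted p under 0.05 and 0 by DESeq2. Crabp2 was at 0 to 14.1 CPM in ventral high and 17.2 to 110 CPM in ventral low sets, groups that did not overlap (-3.43, SE 1.19, adjusted p = 0.185). It was called when the replicate number was used as a block. Aldh1a2 was at 0 reads in the 5 ventral high sets and in 3 of the 5 low sets at 1.62 to 6.04 CPM (at least 20.8-fold lower, adjusted p = 0.203).

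**Figure D2:**
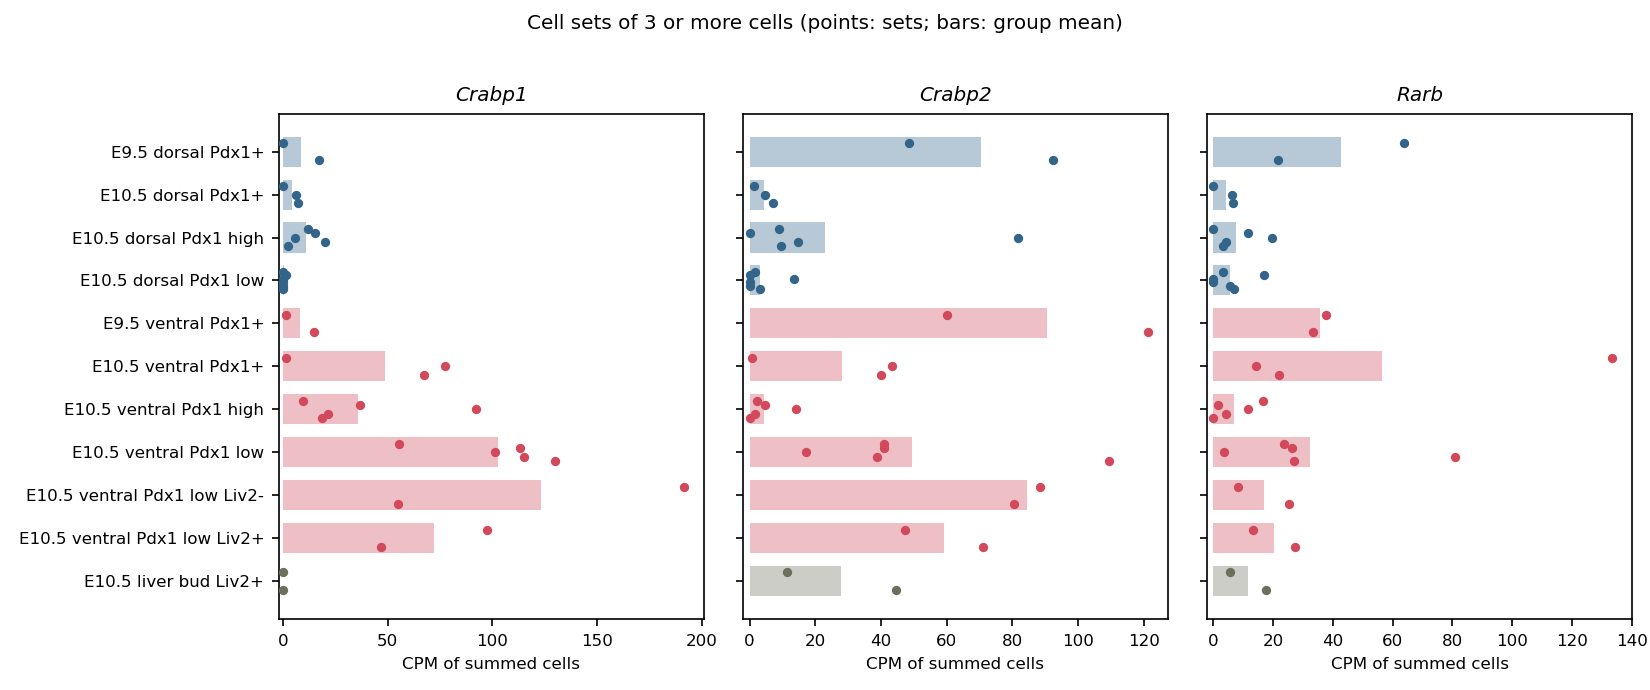
CPM of Crabp1, Crabp2 and Rarb in summed sets of 3 or more single cells (horizontal axes, starting just below 0) for the 11 sorted groups of E9.5 and E10.5 (vertical axis). Points are sets and bars the mean over sets. The ventral Pdx1-GFP-low sets hold 55.2 to 130 CPM of Crabp1 and the dorsal ones at most 1.46 CPM.

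The third E10.5 sort took all Pdx1-GFP+ cells and gave the ventral direction of the bulk libraries without a call. Crabp1 was at 67.5, 77.4 and 1.37 CPM in the ventral sets and at 7.17, 6.15 and 0 CPM in the dorsal ones (3.45, SE 1.35, adjusted p = 0.396). Rarb was at 21.9, 14.2 and 133 CPM ventrally, above 6.66, 6.38 and 0 CPM dorsally (3.67, SE 1.58, adjusted p = 0.474). In ventral set 3, with 133 CPM, 67.7% of the 195 Rarb reads came from 1 cell. Aldh1a1 had reads only ventrally, at 12.5, 5.30 and 0 CPM, at least 60.8-fold higher over the pooled sets (adjusted p = 0.507), or 36.4-fold without ventral set 1. Of the 262 Aldh1a1 reads of ventral set 1, 84.0% came from 1 cell. By edgeR 0 of the 9 genes were called and 0.402% of all genes, with 3 of the 9 at an unadjusted p under 0.05, and DESeq2 called 0 of the 9. Ventral set 3, of 4 cells, carried 1023 CPM of mesenchyme markers against 30.9 and 255 CPM in the other 2, and dorsal sets 1 and 3 carried 7935 and 41404 CPM of endocrine markers against 215 CPM in set 2. The part of these cells in the values was not tested.

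The hepatic side of the ventral region held the same transcripts. In ventral Pdx1-GFP-low cells sorted by Liv2, Crabp1 was at 47.0 and 97.5 CPM in the Liv2+ sets and at 55.1 and 191 CPM in the Liv2- sets. Crabp2 was at 71.2 and 47.2 CPM against 80.4 and 88.4 CPM, and Rarb at 27.4 and 13.4 against 25.3 and 8.43 CPM. None of the 9 genes passed edgeR's test between them (0 with an unadjusted p under 0.05 and 0 by DESeq2), and 0.0% of all genes did, although the hepatoblast markers summed to 7787 and 9334 CPM in the Liv2+ sets and 2345 to 2760 CPM in the Liv2- sets. With 2 sets a side the interval of the Crabp1 difference ran from -3.70 to 2.16 on the log2 scale, so a difference of several fold either way was not detectable.

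The liver bud differed in Crabp1. Its 2 Liv2+ sets held 1 read between them (0.0839 and 0 CPM, 23 cells), while Crabp2 was at 44.5 and 11.3 CPM, Rarb at 17.8 and 5.52 CPM and Aldh1a3 at 26.3 and 3.58 CPM. Of the Aldh1a3 reads in these sets, 69.7% and 52.2% came from 1 cell each. Against ventral Pdx1-GFP-high cells the pooled Crabp1 level was 956-fold lower (171 to 37800 by counting error, adjusted p = 0.0127), 1 of 9 genes called, with 5.53% of all genes called and 2.66% called lower. Against ventral Pdx1-GFP-low Liv2+ cells it was 1650-fold lower (295 to 65000, adjusted p = 0.0363), 1 of 9 genes called, with 0.585% of all genes called and 0.568% called lower. Only 2 liver bud sets were available: without set 1 or set 2 the first call was lost (adjusted p = 0.125 and 0.267), and the other call was lost without any 1 of the 4 sets (0.0606 to 0.947). Of the 1357 Crabp1 reads of the ventral Pdx1-GFP-high sets, 876 lay in set 4, 66.1% of these in 1 cell.

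Counted by cell, Crabp1 reached 10 CPM in 55.6% of ventral Pdx1-GFP-low Liv2+ cells (30 of 54, exact 95% interval 41.4 to 69.1), 59.3% of the Liv2- cells (45.7 to 71.9) and 56.4% of the unsplit Pdx1-GFP-low cells (39.6 to 72.2). The share was 53.8% in ventral Pdx1-GFP-high cells (37.2 to 69.9) and 39.3% in dorsal ones (21.5 to 59.4). It was 0 of 40 dorsal Pdx1-GFP-low cells, which allows up to 7.5%, and 0 of 23 liver bud cells, which allows up to 13.0%. Among cells that reached 10 CPM the median was 36.6 CPM in ventral high cells and 157 CPM in ventral low cells. These intervals cover counting error only, and cells of a set are not independent.

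Crabp2 followed another order. It reached 10 CPM in 83.3% of ventral Liv2+ cells (70.7 to 92.1), 74.6% of Liv2- cells (61.6 to 85.0) and 60.9% of liver bud cells (38.5 to 80.3), but in 20.5% of ventral Pdx1-GFP-high cells (9.3 to 36.5) and 10.0% of dorsal Pdx1-GFP-low cells (2.79 to 23.7). Among the E10.5 groups Rarb ran from 57.4% of ventral Liv2+ cells (43.2 to 70.8) to 14.3% of dorsal Pdx1-GFP-high cells (4.03 to 32.7). In the liver bud Rarb reached 10 CPM in 30.4% of cells (13.2 to 52.9). Over all 447 cells, 113 had both Crabp1 and Crabp2 at 10 CPM, 48 had Crabp1 alone, 125 had Crabp2 alone and 161 had neither. Of the synthesis enzymes Aldh1a1 reached 10 CPM in 19.4% of dorsal E9.5 cells (6 of 31, 7.45 to 37.5), 11.9% of ventral E10.5 Pdx1-GFP+ cells (4.91 to 22.9) and 9.09% of ventral E9.5 cells, and in 0 to 5.13% of cells in the other E9.5 and E10.5 groups. Aldh1a2 reached 10 CPM in at most 10.0% of the cells of any E9.5 or E10.5 group (4 of 40 dorsal Pdx1-GFP-low cells), and Aldh1a3 in 17.4% of liver bud cells (4.95 to 38.8) and in 2.5% to 11.1% elsewhere. At least 1 read of Aldh1a3 was present in 41.9% to 73.9% of cells in each of those groups.

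**Figure D3:**
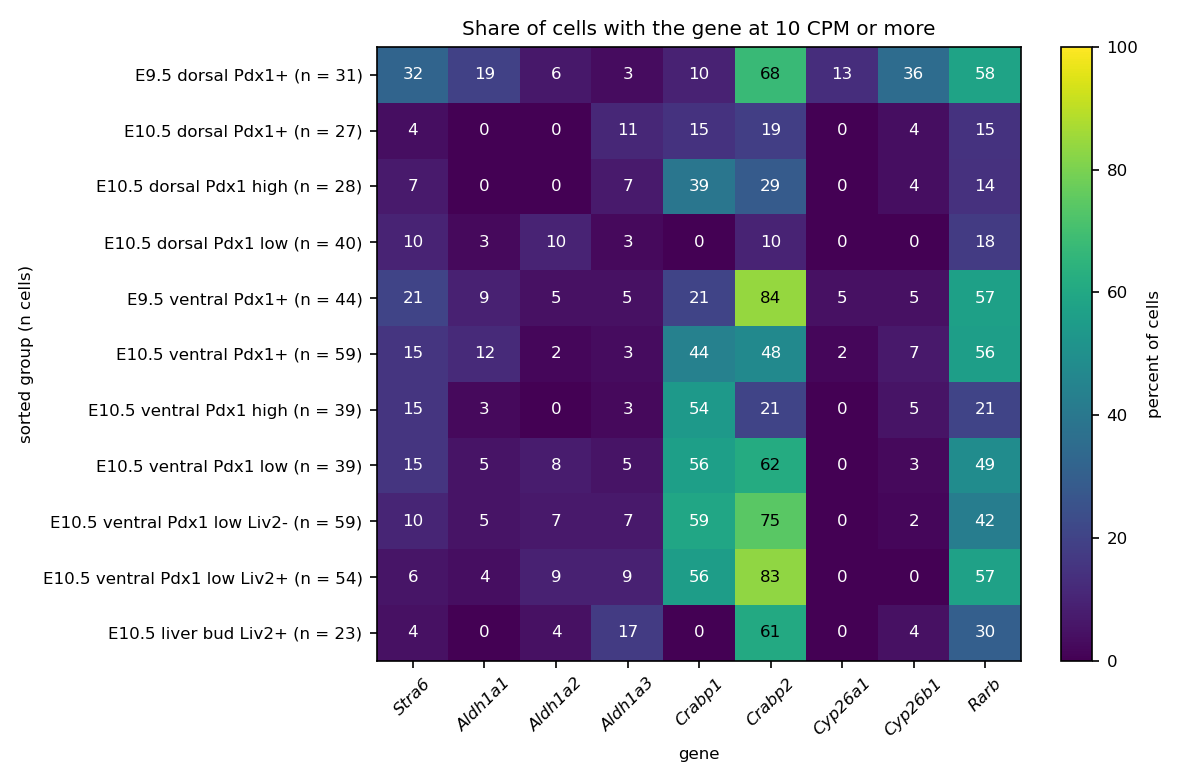
Percentage of cells that reached 10 CPM (colour and printed value) for each of the 9 genes (columns) in the 11 sorted single-cell groups of E9.5 and E10.5 (rows). Crabp2 spans 10.0% in dorsal Pdx1-GFP-low cells to 84.1% in ventral E9.5 cells, and Crabp1 is at 0 in the liver bud and in dorsal Pdx1-GFP-low cells.

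A day earlier, at E9.5, Crabp2 and Rarb were on both sides and Crabp1 was in few cells. Crabp2 was at 92.3 and 48.5 CPM in the dorsal sets and 121 and 60.0 CPM in the ventral ones, and it reached 10 CPM in 67.7% of dorsal (48.6 to 83.3) and 84.1% of ventral cells (69.9 to 93.4). Rarb was at 21.7 and 63.8 CPM dorsally and 33.5 and 37.7 CPM ventrally, with 58.1% and 56.8% of cells at 10 CPM. Crabp1 was at 16.9 and 0.035 CPM dorsally and 14.9 and 1.40 CPM ventrally, so set 1 was the higher on both sides. Of the hydroxylases, Cyp26b1 was at 40.2 and 23.2 CPM dorsally against 3.18 and 0 CPM ventrally, in 35.5% of dorsal cells (19.2 to 54.6) and 4.55% of ventral cells (2 of 44). The sets did not overlap, yet the difference of -4.30 had an SE of 3.28 and an adjusted p of 1.0 with 2 sets a side. Cyp26a1 was found in dorsal set 2 (17.6 CPM) and not in dorsal set 1, and in the ventral sets at 0.41 and 7.19 CPM. Aldh1a1 was at 29.9 and 8.33 CPM dorsally and 2.29 and 4.99 CPM ventrally, and Stra6 at 9.24 and 19.9 against 8.37 and 2.90 CPM.

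By edgeR 0 of 9 genes were called between the sides at E9.5 (0.0% of all genes, 0 of the 9 with an unadjusted p under 0.05, 0 by DESeq2). From E9.5 to E10.5 in dorsal Pdx1-GFP+ cells 0 of 9 were called as well (0.275% of all genes, 4 of the 9 with an unadjusted p under 0.05, 0 by DESeq2). 3 genes with reads at E9.5 had none in the 3 dorsal E10.5 sets: Aldh1a1 was at least 89.7-fold lower (adjusted p = 0.467), Aldh1a2 at least 50.6-fold (0.506) and Cyp26a1 at least 105-fold (0.502). All 244 Aldh1a2 reads and all 504 Cyp26a1 reads at dorsal E9.5 were in set 2, 77.0% and 80.0% of them in 1 cell each, so without set 2 neither gene has a bound. For Aldh1a1 the bound is 60.6-fold without set 1 and 217-fold without set 2. Crabp2 was at 7.04, 4.56 and 1.34 CPM in those E10.5 sets, under both E9.5 sets (-4.01, SE 1.64, adjusted p = 0.47). Ventrally 0 of 9 genes were called between the stages (0.0% of all genes, 0 unadjusted, 0 by DESeq2), and in the test of the side difference between E10.5 and E9.5 again 0 (0.0516% of all genes, 1 unadjusted, 0 by DESeq2). Counting members per cell, 3 or more of the 9 genes reached 10 CPM in 54.8% of dorsal E9.5 cells. At E10.5 this held in 0 of 28 dorsal Pdx1-GFP-high, 0 of 40 dorsal Pdx1-GFP-low and 1 of 27 dorsal Pdx1-GFP+ cells (3.7%). Ventrally it was 34.1% at E9.5 and 20.5% (Pdx1-GFP-high) to 37.0% (Liv2+) at E10.5. Median reads per cell were 1201954 at dorsal E9.5, and 980160, 1200823 and 806787 in the dorsal E10.5 high, low and Pdx1-GFP+ cells. No matching share over all genes is given, the E9.5 cells come from 2 sets a side, and cells of a set are not independent.

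At E14.5 Aldh1a1 and Aldh1a3 differed in opposite directions between the Ngn3 gates, on both sides. Dorsally 5 of 8 genes were called, with 61.3% of all genes, a share near the background, and ventrally 7 of 8, with 61.8%. Aldh1a1 was at 10.8 and 12.7 CPM in dorsal Ngn3-GFP-low libraries and 0.736 and 0.642 CPM in Ngn3-GFP-high ones, lower in the high cells by 4.04 on the log2 scale (SE 0.32, adjusted p = 1.23e-08). Ventrally it was at 9.58 and 10.9 against 0.892 and 0.482 CPM (-3.91, SE 0.32, adjusted p = 2.25e-08). Aldh1a3 was the reverse: 5.60 and 4.59 CPM in dorsal high against 0.496 and 0.125 CPM in dorsal low libraries (4.00, SE 0.45, adjusted p = 8.35e-07), and 12.0 and 13.4 against 0.259 and 0.178 CPM ventrally (5.82, SE 0.46, adjusted p = 1.27e-08). No libraries of the gates overlapped in either gene. The dorsal Aldh1a3 difference ranged from 3.35 to 5.25 with either Ngn3-GFP-low library left out. Aldh1a2, the mesodermal dehydrogenase, was at 14.6 and 3.38 CPM in ventral low against 0.521 and 0.422 CPM in ventral high libraries (-4.24, SE 0.87, adjusted p = 0.00125). Dorsally it was at 5.76 and 3.69 against 1.59 and 1.28 CPM and was not called (-1.68, SE 0.75, adjusted p = 0.0725), though DESeq2 called it (0.0417).

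Stra6, Rarb and Cyp26b1 were also lower in the Ngn3-GFP-high cells on both sides, and Cyp26a1, with 1 to 5 reads per library at this stage, was not tested. Stra6 was at 13.5 and 16.2 CPM in dorsal low against 4.54 and 3.94 CPM in dorsal high libraries (-1.79, SE 0.22, adjusted p = 2.92e-06), and at 18 CPM in both ventral low against 5.58 and 5.12 CPM in ventral high ones (-1.75, SE 0.22, adjusted p = 3.09e-06). It overlaps Ccdc33 on the opposite strand, with the same limit on strand as Rarb, and also Gm16131 on the same strand, which counting by strand would not separate. Rarb was at 1.98 and 2.44 against 0.368 and 0.550 CPM dorsally (-2.33, SE 0.47, adjusted p = 0.000454). Ventrally it was at 2.91 and 1.54 CPM against 0 and 0.12 CPM, the latter 2 reads, a pooled ratio of 33.0-fold (8.81 to 278 by counting error, adjusted p = 9.22e-06). Cyp26b1 was at 3.96 and 1.63 against 0.368 and 0.917 CPM dorsally (-2.27, SE 0.78, adjusted p = 0.0221), a call lost without Ngn3-GFP-low library 1 (-1.50, adjusted p = 0.187) or Ngn3-GFP-high library 1 (-1.60, 0.206). Ventrally Cyp26b1 was at 11.5 and 2.31 against 0.223 and 0.120 CPM (-5.29, SE 0.91, adjusted p = 0.000214).

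The binding proteins were low in all 8 libraries of this stage. Crabp1 was at 1.75 and 1.30 CPM in ventral low libraries and at 0 and 0.12 CPM in ventral high ones, again 2 reads (22.8-fold lower, 5.98 to 193 by counting error, adjusted p = 3.05e-05), and at 0.557 and 0.438 against 0.163 and 0.183 CPM dorsally (-1.50, SE 0.65, adjusted p = 0.0571). Crabp2 stayed between 0.626 and 1.11 CPM and was called on neither side (adjusted p = 0.675 dorsally and 0.897 ventrally). By direction, 1 gene of 8 was called higher and 4 lower dorsally, where 29.2% of all genes were higher and 32.1% lower, and 1 higher and 6 lower ventrally, where 29.5% were higher and 32.4% lower.

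The Ngn3-GFP-low libraries also held cells of other kinds. The 8 endothelium markers summed to 240 to 793 CPM in the 4 low libraries and 7.11 to 12.7 CPM in the 4 high ones, the mesenchyme markers to 236 to 1225 against 73.1 to 157 CPM, and the mesothelium markers to 79.9 to 129 against 69.3 to 73.8 CPM. Ventral low library 1, the one with the highest Aldh1a2 and Cyp26b1, had 1225 CPM of mesenchyme markers against 303 CPM in library 2. Without it Aldh1a2 differed by -2.83 (adjusted p = 0.00517) and Cyp26b1 by -3.72 (adjusted p = 0.00046), and all 7 ventral calls were kept. The part of these other cells in the values was not tested.

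**Figure D4:**
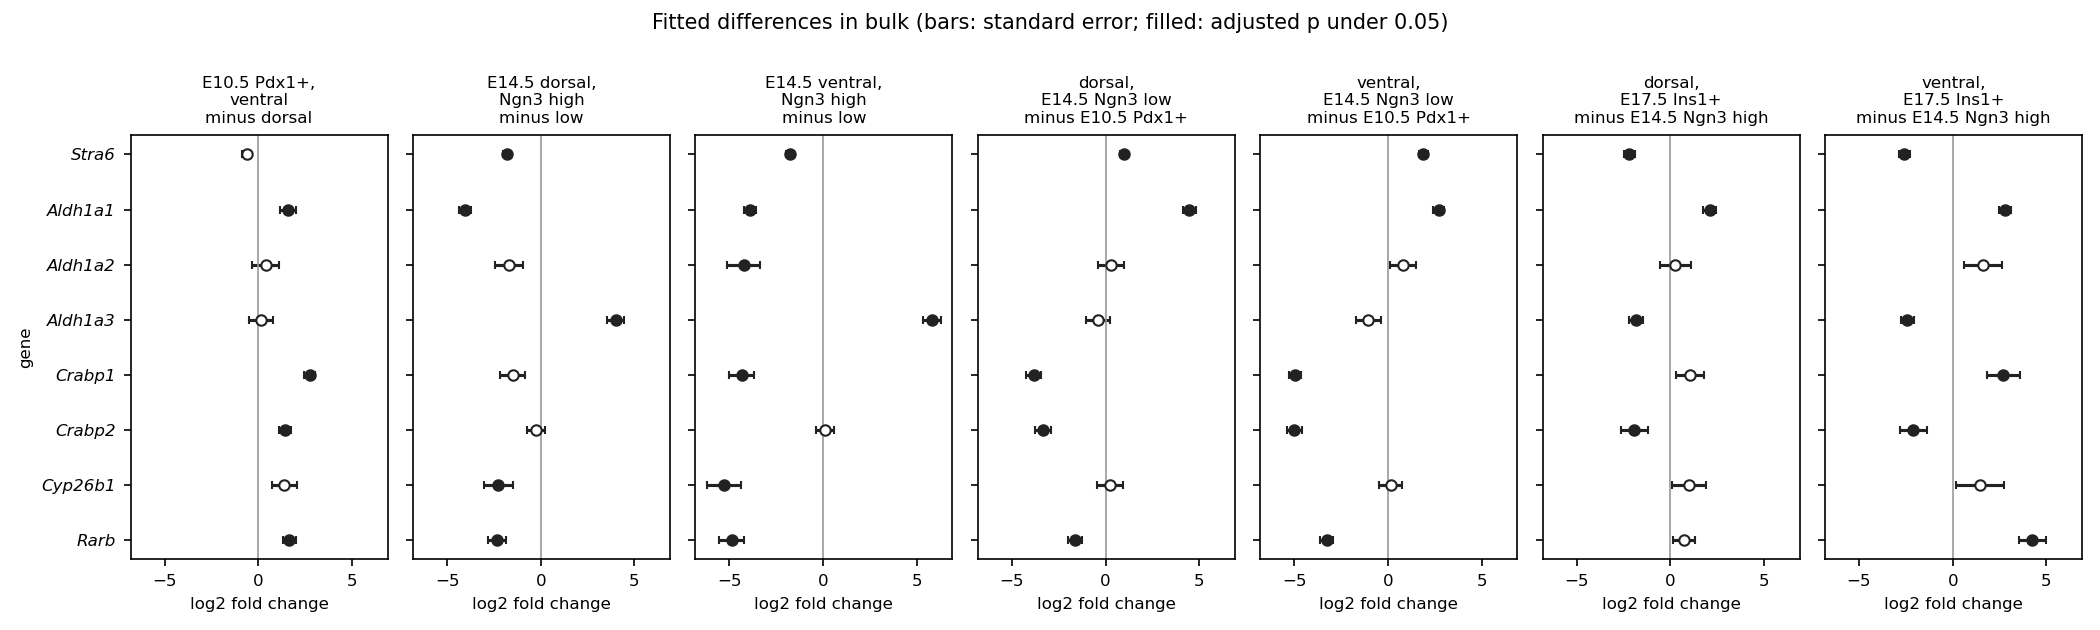
Log2 fold changes (horizontal axis, with bars of 1 standard error) of the 8 genes tested in bulk for the comparisons of side, Ngn3 gate and stage; filled points have an adjusted p under 0.05 in edgeR's quasi-likelihood test. Aldh1a3 is to the right of 0 in both Ngn3 comparisons, at 4.00 and 5.82, and Aldh1a1 to the left, at -4.04 and -3.91; Rarb and Crabp1 in both ventral panels with Ngn3-GFP-high cells rest on 2 reads in that group, and their points are no measure of size.

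At E14.5 and E17.5 no side difference of the 8 genes tested was called in the main fit, which filtered out low counts. With the replicate number as a block and the filter kept, Aldh1a3 was called between the Ngn3-GFP-high sides. With no filter, Aldh1a3 (adjusted p = 0.00568) and Aldh1a2 (-1.63, adjusted p = 0.0368) were called between the Ngn3-GFP-high sides and Crabp1 (adjusted p = 0.0281) between the Ngn3-GFP-low sides. Between ventral and dorsal Ngn3-GFP-high cells 0 of 8 genes were called by edgeR (0.537% of all genes), with 2 at an unadjusted p under 0.05. The first was Aldh1a3, at 12.0 and 13.4 CPM ventrally above 5.60 and 4.59 CPM dorsally (1.31, SE 0.32, adjusted p = 0.112), and the second Rarb, whose ventral libraries hold 0 and 2 reads (adjusted p = 0.461). Between the Ngn3-GFP-low sides 0 of 8 were called (0.017% of all genes, 1 unadjusted), Crabp1 being at 1.75 and 1.30 against 0.557 and 0.438 CPM (1.59, SE 0.45, adjusted p = 0.725). Between the Ins1-RFP+ sides 0 of 8 were called too (0.0283% of all genes, 0 unadjusted). DESeq2 called 0 of 8 in each of the 3. For Rarb the interval of the side difference in Ngn3-GFP-low cells ran from -0.75 to 0.75 on the log2 scale, under its difference at E10.5. The test of whether the gate difference itself varied by side called 0 of 8 genes (0.0283% of all genes, 4 unadjusted, 0 by DESeq2), and with no filter it called Aldh1a2 (adjusted p = 0.00192) and Cyp26b1 (0.0155).

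Set directly against each other, the side difference of the E14.5 Ngn3-GFP-low cells was below that of the E10.5 Pdx1-GFP+ cells for Aldh1a1 by 1.78 on the log2 scale (SE 0.50, adjusted p = 0.0291) and for Rarb by 1.65 (SE 0.51, adjusted p = 0.0436). These were 2 of 8 genes, with 12.0% of all genes called and 4.38% called in that direction. Leaving out 1 library at a time left 0 to 2 genes called. Rarb was kept without ventral Ngn3-GFP-low library 1 and lost without any of the 7 others (adjusted p up to 0.199), and Aldh1a1 was lost without dorsal E10.5 library 1 (0.185), ventral E10.5 library 1 (0.101), dorsal Ngn3-GFP-low library 2 (0.0861) or ventral Ngn3-GFP-low library 1 (0.0693). Crabp2 passed without dorsal E10.5 library 1 (-2.37, adjusted p = 0.0127) and Stra6 without dorsal E10.5 library 2 (1.20, 0.0326).

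From E10.5 Pdx1-GFP+ to E14.5 Ngn3-GFP-low cells the binding proteins and Rarb fell while Aldh1a1 and Stra6 rose, on both sides. Crabp1 fell by 3.82 dorsally (SE 0.40, adjusted p = 5.78e-07) and by 4.96 ventrally (SE 0.34, adjusted p = 4.83e-09). Crabp2 fell by 3.34 (SE 0.40, adjusted p = 2.92e-06) and by 5.00 (SE 0.41, adjusted p = 3.89e-08), and Rarb by 1.62 (SE 0.37, adjusted p = 0.00123) and by 3.27 (SE 0.36, adjusted p = 1.2e-06). Aldh1a1 rose by 4.48 dorsally (SE 0.36, adjusted p = 2.76e-08) and 2.70 ventrally (SE 0.30, adjusted p = 1.35e-06), and Stra6 by 0.99 (SE 0.22, adjusted p = 0.00106) and 1.90 (SE 0.23, adjusted p = 2.95e-06). 5 of 8 genes were called on either side, 2 higher and 3 lower. Of all genes 59.8% were called dorsally (27.6% higher, 32.2% lower) and 55.2% ventrally (27.1% higher, 28.1% lower). Aldh1a2 and Cyp26b1 were not called, and ventrally both changed sign without Ngn3-GFP-low library 1, to -0.59 (adjusted p = 0.473) and -1.43 (adjusted p = 0.0436). Aldh1a2 passed without library 2 of that group (1.53, adjusted p = 0.0411). Stage and sorting reporter change together here and cannot be told apart, and the E10.5 samples serve both the side and the stage comparisons. By level per length, Stra6 and Aldh1a1 led the 9 genes in dorsal Ngn3-GFP-low cells, at 5.04 ± 0.588 and 5.96 ± 0.616 RPKM, and did not differ beyond their spread, and ventrally they stood at 6.22 ± 0.00726 and 5.30 ± 0.487 RPKM.

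In Ins1-RFP+ cells at E17.5, Aldh1a1 was higher and Aldh1a3 and Stra6 were lower than in Ngn3-GFP-high cells at E14.5. Aldh1a1 was at 3.37 and 2.70 CPM dorsally and 4.39 and 5.00 CPM ventrally, up by 2.11 (SE 0.34, adjusted p = 0.000104) and 2.78 (SE 0.34, adjusted p = 4.72e-06). Aldh1a3 was at 1.52 and 1.30 CPM dorsally and 3.00 and 1.67 CPM ventrally, lower by 1.85 (SE 0.38, adjusted p = 0.000811) and 2.42 (SE 0.35, adjusted p = 2.74e-05). Stra6 was at 0.730 to 1.08 CPM over the 4 libraries, where it was lowest of all stages, and fell by 2.20 (SE 0.30, adjusted p = 1.89e-05) and 2.59 (SE 0.30, adjusted p = 2.54e-06). All libraries of these 3 genes stood apart from those of the Ngn3-GFP-high group on their side.

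Aldh1a2 was at 2.81 and 0.541 CPM dorsally and 1.93 and 0.938 CPM ventrally and was not called, nor was Cyp26b1, at 0.208 to 1.20 CPM. The lower expressed genes gave calls on few reads. Rarb was at 1.85 and 0.938 CPM in ventral Ins1-RFP+ libraries, 22-fold above the 2 reads of the Ngn3-GFP-high group (5.62 to 189 by counting error, adjusted p = 0.000165). Crabp1 was at 0.616 and 0.313 CPM there, 7.32-fold higher (1.60 to 68.0, adjusted p = 0.0163), a call lost without ventral Ngn3-GFP-high library 1 (0.096) or Ins1-RFP+ library 1 (0.189). Crabp2 was at 0.077 to 0.313 CPM in the 4 libraries and lower by 1.92 dorsally (SE 0.71, adjusted p = 0.0355) and 2.1 ventrally (SE 0.71, adjusted p = 0.0212). The dorsal call was lost without any 1 of its 4 libraries (adjusted p = 0.0536 to 0.186) and with DESeq2 (0.0705), and the ventral one without Ngn3-GFP-high library 2 (0.0758) or Ins1-RFP+ library 1 (0.221). In all 4 of 8 genes were called dorsally, 1 higher and 3 lower, with 47.4% of all genes called (24.4% higher, 23.1% lower). Ventrally 6 of 8 were called, 3 higher and 3 lower, with 51.0% of all genes (26.6% higher, 24.5% lower). Stage and reporter again change together, and the mesenchyme markers summed to 834 to 2849 CPM in the Ins1-RFP+ libraries against 73.1 to 157 CPM in the Ngn3-GFP-high ones. The part of these cells was not tested.

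Around the 9 genes, a list of 26 other retinoid genes (retinol carriers, dehydrogenases, receptors and their cofactors) had 22 members tested. At E10.5 in bulk 7 were higher ventrally and 4 lower, with a median log2 difference of -0.07 against -0.03 over all genes and 24.7% of all genes called. Bco2, a carotenoid-cleaving dioxygenase, was higher by 1.38 (adjusted p = 0.0398), a call lost without any 1 of the 4 libraries (0.0731 to 0.206). Bcmo1, which cleaves beta-carotene to retinal, was lower ventrally, at 7.18 and 4.49 against 20.8 and 26.4 CPM (-2.03, SE 0.24, adjusted p = 7.53e-06), as was Rbp4, the plasma carrier that Stra6 receives, at 214 and 184 against 489 and 484 CPM. Of 10 genes known as retinoic acid targets, 9 were tested, and 2 were higher ventrally and 0 lower, near the 24.7% of all genes called. Tgm2, a transglutaminase induced by retinoic acid, was at 156 and 128 CPM ventrally and 40.1 and 37.7 CPM dorsally (1.86, SE 0.12, adjusted p = 8.23e-09).

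In the Pdx1-GFP-low single cells 6 of the 22 genes were higher ventrally and 2 lower (median 0.41 against 0.0 over all genes), and 3 of the 9 targets were higher, where 24.9% of all genes were called and 13.9% were higher. Fabp5, a fatty-acid-binding protein that can also carry retinoic acid, was higher by 5.12 (adjusted p = 2.5e-06), and Rbp4 and Bcmo1 were lower by 3.62 (adjusted p = 4.71e-05) and 3.47 (adjusted p = 0.0236). The last call was lost without ventral set 5 (0.0526). Tgm2 was higher by 4.11 (adjusted p = 0.000508) and Meis2 by 2.03 (0.00229). Between dorsal high and low cells the counts were also 6 higher and 2 lower, where 24.1% of all genes were called, led by Rdh10, a retinol dehydrogenase, at -5.53 (adjusted p = 0.00672), Bcmo1 at -4.57 (0.00613), Rxrg, a partner receptor, at 4.39 (0.00599) and Fabp5 at 4.00 (4.93e-05). 3 targets were higher there, Meis2 by 2.67 (0.00019), Tgm2 by 2.48 (0.0225, or 0.0547 without high set 1) and Meis1 by 1.97 (5.65e-05), and 0 lower.

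At E14.5 the gate moved 17 of the 22 retinoid genes dorsally, 6 higher and 11 lower in Ngn3-GFP-high cells (median -0.43 against -0.01 over all genes), and 15 ventrally, 5 higher and 10 lower (-0.32 against 0.0). Rbp4 was at 708 and 658 CPM in dorsal high against 27.5 and 34.3 CPM in dorsal low libraries (4.47, SE 0.16, adjusted p = 7.62e-13) and higher by 4.32 ventrally. Bcmo1 was higher by 3.65 and 3.62. Rxrg was at 1.02 and 0.825 against 13.1 and 15.4 CPM dorsally (-3.89, SE 0.24, adjusted p = 6.91e-10) and lower by 4.91 ventrally. Of the targets 1 was higher and 6 lower on either side. Hoxb5 had no read in ventral high against 1.36 and 0.593 CPM, and Hoxb4 0 and 0.12 CPM in ventral high against 2.98 and 0.652 CPM. Tgm2 was at 300 and 311 CPM in dorsal low against 54.4 and 49.3 CPM in high libraries (-2.55, SE 0.12, adjusted p = 1.23e-11) and lower by 2.83 ventrally. Meis2, a homeobox cofactor, was the target that was higher, by 1.63 and 1.56. These counts stand beside the 61.3% and 61.8% of all genes that changed.

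From E10.5 to E14.5 the retinoid list had 12 higher and 3 lower dorsally and 9 higher and 4 lower ventrally, of 22 tested on either side. Of all genes 59.8% and 55.2% were called, and the ventral share of the list is near the latter. Rbp4 fell by 3.98 dorsally (adjusted p = 6.21e-12) and by 2.80 ventrally (adjusted p = 3.21e-10). Adh1, an alcohol dehydrogenase able to oxidise retinol, rose by 3.32 (adjusted p = 1.05e-05) and 2.98 (adjusted p = 1.15e-05). Bcmo1 fell by 3.63 dorsally and Rdh10 rose by 1.12, and ventrally Bco2 fell by 2.01 and Rarg, a sister receptor of Rarb, rose by 1.92. Among the targets Tgm2 rose by 2.97 dorsally (adjusted p = 8.58e-12) and 1.20 ventrally (adjusted p = 1.53e-07), in the same libraries in which Rarb fell, and its side difference shrank by 1.77 (SE 0.16, adjusted p = 1.38e-06). Hoxb1 went from 1.61 and 0.803 CPM to no read dorsally. In Ins1-RFP+ against Ngn3-GFP-high cells 7 of 22 were higher and 8 lower on either side, with 47.4% of all genes called dorsally and 51.0% ventrally. Adh7, Adh1 and Fabp5 were higher dorsally by 2.22, 1.64 and 1.28 and ventrally by 2.60, 2.21 and 1.54, while Rxrg was lower by 2.00 dorsally and Bcmo1 by 1.16 ventrally. The Adh7 calls were lost without any 1 of the 4 dorsal libraries (adjusted p = 0.0791 to 0.152) and without ventral Ngn3-GFP-high library 1 or 2 or Ins1-RFP+ library 1 (0.117 to 0.281), and the Rxrg call without dorsal Ngn3-GFP-high library 1 (0.0534) or Ins1-RFP+ library 1 (0.0808).

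The genes whose bulk levels followed each of 8 members most closely were ranked by Pearson's r of log2(CPM + 1) over the 16 libraries, which share groups and mixed cell content, so the values are a description. Crabp1 was closest to Rhox5 (r = 0.993), Pcolce2 (0.990) and Slc2a4 (0.986), and Crabp2 to Adrb1 (0.982), Pcp2 (0.979) and Rnf207 (0.976). Rarb was closest to Cald1 (0.984), Pgd (0.978) and Pfkl (0.976). Aldh1a1 followed Arhgef10 (0.973), Lifr (0.97) and Tbc1d4 (0.967), and Stra6 followed Smoc1 (0.980), Fam63a (0.978) and Ltbr (0.976). Aldh1a3 was closest to Cd177 (0.977), Nr4a3 (0.969) and Cnr1 (0.967). Cyp26b1 followed Lrrn4 (0.947), Wt1 (0.941) and Pcdh11x (0.937), and Aldh1a2 followed Gng11, Fzd10 and Fam198b (0.927, 0.918 and 0.917). Lrrn4 and Wt1 are on the mesothelium marker list, whose sum did not track Cyp26b1 throughout. The sum was 88.3 and 86.3 CPM in ventral E10.5 and 84.9 and 86.9 CPM in dorsal Ins1-RFP+ libraries. Cyp26b1 was at 5.75 and 6.73 against 1.20 and 1.08 CPM there. Ventral Ngn3-GFP-low library 1 was highest in both, at 129 and 11.5 CPM. Over the 37 single-cell sets the closest gene was Pltp for Crabp1 (0.796), Sptssb for Crabp2 (0.849), Sh3yl1 for Rarb (0.723), Mfsd2a for Cyp26b1 (0.718) and Myo18b for Cyp26a1 (0.910), the last resting on the few sets with a Cyp26a1 read.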

How the data were processed

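Gene read counts were deposited by the authors as 1 table of 16 bulk libraries and 1 of 447 single cells. Per the submitters' processing notes, TopHat2 2.1.0, Bowtie2 and HTSeq 0.6.0 were used with GRCm38/mm10. For the annotation release, the filters and the strand setting of the counting, the sources used here state nothing, so genes that overlap others are uncertain. Deposited RPKM tables were not used. Spike-in rows (92 names, a median of 0.261% to 4.24% of reads per cell group) were left out of totals. Samples were grouped by their labels. Replicate bulk libraries differed beyond counting noise (chi-square per gene 2.74 to 34.0).

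Counts were tested with edgeR 4.0.16 (quasi-likelihood F test, TMM scaling, filterByExpr with a minimum count of 10 and total of 15, Benjamini-Hochberg adjustment over all genes tested, threshold 0.05), with 1 model for the 16 bulk libraries and 1 for 37 sets of single cells, cells of 1 numbered set being summed. Every adjusted p printed comes from edgeR unless DESeq2 is named. The 3 sets of under 3 cells and the 4 E15.5 liver cells were not tested. The number of a set may mark a plate, a sort or an embryo, which the labels leave undefined. SE is the log2 fold change divided by the root of F, and intervals of log2 differences are 1.96 SE either way. Levels are CPM on TMM-scaled library size. RPKM divides reads by the deposited gene length and by the plain total of gene reads, without TMM scaling. A share of cells uses 10 CPM of the plain total with an exact Clopper-Pearson 95% interval, and a count of 0 allows 3 of the total. Those intervals and floors cover counting error only. The 3 genes with the most similar pattern were named for members with a mean of 5 CPM or more in a group. The fits were tested on simulated data.

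Alternatives were RLE scaling, no filter on low counts, DESeq2 1.42.0, the replicate number as a block, other minimum set sizes, other cutoffs for cells and leaving out each library or set. The members, gene lists and tests were chosen with earlier results of these data known. Genes named besides the 9 are the 4 of each list with the largest change among those called, of which some are not reported here. Coordinates of promoters are RefSeq's on GRCm38.p6. Tools were R 4.3.3, Python 3.11.15, numpy 2.4.6, pandas 2.3.3 and scipy 1.17.1.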

Additional observations from a re-analysis of the deposited data

Results flagged for a closer look

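Among 24 group values examined with 4 to 10 sets, 9 held a set whose gap to its nearest neighbour was over the critical share of the group's range. That share flags about 1 in 20 groups of normally distributed values. CPM of few cells, with many zeros and reads from single cells, are not such values, so the 9 are a description and no excess over chance. These sets had the highest CPM of their group: Aldh1a3 at 16.3 in ventral Pdx1-GFP-high set 6, Crabp1 at 1.46 in dorsal Pdx1-GFP-low set 5, and Crabp2 at 81.8 in dorsal Pdx1-GFP-high set 4, at 13.5 in dorsal Pdx1-GFP-low set 4 and at 110 in ventral Pdx1-GFP-low set 1. Cyp26b1 stood apart at 9.18 in dorsal Pdx1-GFP-high set 5 and at 8.96 in ventral Pdx1-GFP-high set 5, and Stra6 at 20.2 in dorsal Pdx1-GFP-low set 3 and at 63.0 in ventral Pdx1-GFP-high set 4. In that last set 87.8% of the 600 Stra6 reads came from 1 cell, and in the dorsal set with 81.8 CPM of Crabp2 99.7% of 322 reads did.

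The side difference itself differed between populations in 4 results that passed edgeR's test. In bulk it was smaller at E14.5 than at E10.5 for Aldh1a1 (-1.78 on the log2 scale, adjusted p = 0.0291) and Rarb (-1.65, adjusted p = 0.0436). Each of these bulk calls was lost when certain single libraries were left out, and DESeq2 did not keep both. In single cells it was smaller in Pdx1-GFP-high than in Pdx1-GFP-low cells for Crabp1 (-7.12, adjusted p = 0.0042) and Crabp2 (-6.37, adjusted p = 0.011).

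The 4 E15.5 liver cells enter no comparison. They held 9 reads of Aldh1a1 in 2 cells, a pooled 4.47 CPM, above the 1.49 CPM that 3 reads would give, and 0 reads of the other 8 genes.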

How the results depend on the processing

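The number of the 9 genes called per comparison stayed within 1.5 times of the reported one with RLE scaling in 25 of 25 comparisons, with DESeq2 in 24 and with no filter on low counts in 21. With no filter it went from 0 to 2 between Ngn3-GFP-high sides and in the test of the gate by side, from 0 to 1 between Ngn3-GFP-low sides, and from 1 to 0 between liver bud and ventral Liv2+ cells, where using all sets also gave 0. DESeq2 left 1 of 2 in the side difference of E14.5 against E10.5. Sets of 5 or more cells left 1 of 3 between dorsal Pdx1-GFP-high and -low cells. With 1 library or set left out, 149 counts held and 15 moved: the range was 0 to 2 for that side difference, 1 to 4 for dorsal high against low cells, 0 to 1 for liver bud against Pdx1-GFP-high cells and 0 for liver bud against Liv2+ cells.

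Replicate numbers do not pair the libraries by the labels, and deviations of same-numbered samples correlated from -0.11 to 0.22 over set comparisons with 3 or more pairs. In bulk, with 2 pairs each, the side comparisons gave 0.31 (E10.5), 0.35 (Ngn3-GFP-high), 0.51 (Ngn3-GFP-low) and 0.77 (Ins1-RFP+). The other bulk comparisons gave -0.01 to 0.30. Whether bulk libraries of the same number share a source was not tested, and the main fit treats them as unpaired. With the number as a replicate block, 1 gene instead of 0 was called between Ngn3-GFP-high sides (Aldh1a3, adjusted p = 0.0272) and 1 instead of 0 between ventral Pdx1-GFP-high and -low cells (Crabp2, -4.77, adjusted p = 0.0103), and 23 of 25 counts held.

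Signs turned for ventral Ngn3-GFP-low against E10.5 cells without Ngn3-GFP-low library 1 (Aldh1a2 -0.59, or 1.53 without library 2; Cyp26b1 -1.43, or 0.89) and with the block (Cyp26b1 -0.094), and for Stra6 between dorsal high and low cells without low set 3 (0.38; lowest -8.75 without high set 1) and in sets of 5 or more cells (0.41). The cause was not tested. Of the shares of cells, 15 of 86 moved beyond their interval at a cutoff of 1 read and 2 of 86 after thinning to 200000 reads.

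Over all genes, calls between sides rose with no filter from 95 to 295 (Ngn3-GFP-high), 3 to 137 (Ngn3-GFP-low), 5 to 94 (Ins1-RFP+) and 5 to 146 (gate by side). DESeq2 called 13, 10 and 39 in the last 3. Of set comparisons, DESeq2 called 331 against 70 genes (Pdx1-GFP+ sides; 29 in sets of 5 or more, 46 unfiltered), 236 against 3 (Pdx1-GFP-high sides; 1 with RLE scaling or unfiltered, 7 with all sets), 606 against 168 (ventral high and low), 2098 against 964 (liver bud and high; 1609 in sets of 5 or more), 479 against 102 (liver bud and Liv2+; 181), 355 against 48 (dorsal stages; 73), 68 against 9 (side by stage; 5 with RLE scaling or the block, 3 without the 25 ventral E9.5 cells), and 28, 17 and 29 against 0 (E9.5 sides, ventral stages, Liv2). With 2 libraries or sets a group, and under 10 reads for several members, differences of a few fold were often not detectable.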

Other observations

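In the ventral Pdx1-GFP-low sets compared, with or without Liv2, cells with Crabp1 at 10 CPM or more carried less hepatoblast RNA than the other cells of their set. Of the 6 unsplit Pdx1-GFP-low sets 2 were compared. The comparison was chosen after its values were seen and is given without a test. In ventral Pdx1-GFP-low Liv2+ cells the median hepatoblast marker sum was 1701 CPM in the 19 cells of set 1 with Crabp1 and 11467 CPM in the 18 without, and 2213 CPM (11 cells) against 14727 CPM (6 cells) in set 2. In the Liv2- cells it was 1519 CPM (23 cells) against 4236 CPM (18 cells) in set 1 and 1547 CPM (12 cells) against 2634 CPM (6 cells) in set 2. The unsplit Pdx1-GFP-low sets 1 and 6 showed the same order, at 1032 against 4290 CPM and 1467 against 2413 CPM. Ventral Pdx1-GFP-high sets 4 and 6 had the opposite order, at 333 against 69.3 CPM and 486 against 353 CPM. Elsewhere the sums were lower with Crabp1 in ventral Pdx1-GFP+ sets 1 and 2 and ventral E9.5 set 1, and higher in dorsal E9.5 set 1. For Crabp2 the order varied. Cells with it had the lower sums in both Liv2+ sets, at 2392 against 22047 CPM and 2537 against 21433 CPM. Their sums were also lower in Liv2- set 2 (1621 against 2634 CPM), ventral Pdx1-GFP+ set 2 (1418 against 1540 CPM) and liver bud set 2 (29583 against 43804 CPM). Higher sums were found in Liv2- set 1 (2297 against 1765 CPM), unsplit low set 6 (2413 against 936 CPM) and ventral Pdx1-GFP+ set 1 (2726 against 884 CPM). The same held in ventral Pdx1-GFP-high set 4 (1164 against 155 CPM) and ventral E9.5 set 2 (2287 against 2168 CPM). Of the dorsal sets, Pdx1-GFP-high set 1 was higher (203 against 91.4 CPM), and Pdx1-GFP+ set 1 and E9.5 set 2 were lower. For Rarb in the ventral Pdx1-GFP-low sorts the order varied too. Sums were higher with it in Liv2+ sets 1 and 2 (4006 against 2268 and 10363 against 3332 CPM), Liv2- set 1 and unsplit set 1. They were lower in Liv2- set 2 (1409 against 2195 CPM) and unsplit set 6. Depth and cell size were not compared between these cells.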
